A study of Mus musculus with 9 samples.

Results

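Dendritic cells and Langerhans cells were followed in mouse ear dermis through 10 marker genes, namely Cd207, Itgax, Flt3, Xcr1, Clec9a, Batf3, Ccr7, Cd209a, Zbtb46 and Siglech. The genes were picked by symbol, with earlier results of these data known. Each symbol matched 1 row of the count file, which listed 52550 genes, and all 10 were among the 22430 genes that passed the low-count filter. RNA was sequenced in 9 libraries from wild-type male C57BL/6 mice (C57BL/6J in the study's methods) aged 8 weeks, in 3 groups of 3 libraries. In the control group (VAS+H2O) vaseline was put on the ears for 5 days, and ddH2O was given by gavage for 10 days. The model group (IMQ+H2O) received imiquimod cream on the ears for 5 days with the same water gavage, which induces a psoriasis-like dermatitis. The treated group (IMQ+XYF) received imiquimod in the same way, with a daily gavage of 200 µl of Xiao-Yin-Fang at a labelled 23.3 mg/g for 10 days. Xiao-Yin-Fang (XYF) is a decoction of Isatis tinctoria, Scutellaria baicalensis, Salvia miltiorrhiza, Sophora flavescens and Rheum officinale. No group analysed here had XYF without imiquimod or the cream without imiquimod. The study's methods name a pair of mice as the source of the sheets, and its figure legend gives n = 3 for each group. It is not clear from the sources used here whether each library pooled animals.

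Dendritic cells take up antigen in the tissue, mature, and carry it along lymphatic vessels to the lymph node, a journey that depends on the chemokine receptor CCR7. Skin holds Langerhans cells in the epidermis, which carry the lectin langerin (Cd207), type 1 conventional dendritic cells, which cross-present antigen to cytotoxic T cells, and type 2 conventional dendritic cells, which prime helper T cells. Plasmacytoid dendritic cells, which make type I interferon on sensing nucleic acids, can enter inflamed skin. Imiquimod is a small-molecule agonist of the receptor TLR7, and in mice dendritic cells are among the cells that respond to it.

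The libraries held 28756305 to 79836881 counts. A count of 3, used as the detection floor, corresponded to 0.0373 to 0.103 counts per 1000000 library counts (CPM), and every marker gene was above it in every library. Levels below are CPM scaled with TMM, a factor that corrects for library composition. The dermal matrix genes Dcn and Col3a1 stood at 4547 to 6282 and 1547 to 6889 CPM. Genes of other tissues were present as well. The summed level of 8 keratinocyte genes was 3823 to 7256 CPM in VAS+H2O, 2369 to 3584 in IMQ+H2O and 4274 to 16569 in IMQ+XYF. The sum of 5 cartilage genes was 797 to 1438, 231 to 364 and 447 to 1410 CPM in the same order, with Matn1 at 0 in every library, and that of 5 skeletal muscle genes was 208 to 819, 430 to 855 and 52.3 to 269 CPM. In bulk tissue, fewer cells of a type and less RNA per cell cannot be told apart. Replicates were separate samples by their labels, and where they share animals the p-values measure only the spread between these samples.

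All 10 genes are annotated as protein coding on GRCm38. Sequence upstream of the annotated RefSeq start is shown for Cd207 and Itgax, which hold a match to the AP-1 element, and for Xcr1 and Siglech, which were lower in all imiquimod libraries than in the controls. Only bases outside the annotated gene are shown, 5′ to 3′ on the strand of the gene. In the first pair, capitals mark the AP-1 element, spelled TGANTCA, the site bound by FOS, JUN and BATF family dimers.
Cd207, GRCm38.p6 chr6:83677858-83678107, minus strand: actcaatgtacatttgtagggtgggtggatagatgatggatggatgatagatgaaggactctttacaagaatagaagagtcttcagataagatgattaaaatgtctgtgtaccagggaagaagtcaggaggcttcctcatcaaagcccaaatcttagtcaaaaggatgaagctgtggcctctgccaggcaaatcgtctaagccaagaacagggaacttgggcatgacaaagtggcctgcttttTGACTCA
Itgax, GRCm38.p6 chr7:128129300-128129546, plus strand: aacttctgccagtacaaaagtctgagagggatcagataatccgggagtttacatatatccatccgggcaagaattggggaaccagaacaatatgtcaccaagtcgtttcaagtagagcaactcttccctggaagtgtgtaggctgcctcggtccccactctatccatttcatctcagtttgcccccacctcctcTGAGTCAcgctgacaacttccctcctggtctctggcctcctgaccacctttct
In the second pair, capitals mark E-boxes, spelled CANNTG, the site of basic helix-loop-helix factors such as TCF4, which maintains plasmacytoid dendritic cell identity.
Xcr1, GRCm38.p6 chr9:123862030-123862279, minus strand: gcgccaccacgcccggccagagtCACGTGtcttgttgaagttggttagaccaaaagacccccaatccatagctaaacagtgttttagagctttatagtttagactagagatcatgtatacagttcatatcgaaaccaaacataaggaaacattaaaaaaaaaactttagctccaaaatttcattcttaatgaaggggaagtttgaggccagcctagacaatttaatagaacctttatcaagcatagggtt
Siglech, GRCm38.p6 chr7:55767934-55768177, plus strand: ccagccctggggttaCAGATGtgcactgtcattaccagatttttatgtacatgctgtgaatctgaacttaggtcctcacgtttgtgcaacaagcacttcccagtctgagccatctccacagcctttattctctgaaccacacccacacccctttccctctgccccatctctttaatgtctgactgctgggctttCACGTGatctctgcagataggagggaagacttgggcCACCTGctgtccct
RefSeq upstream sequence was found for 9 of the 10 genes, and Ccr7 was the one without an entry. Over windows of 250 bases and both strands, the AP-1 element matched in 3 of these 9, against 6.75% of 32851 promoters. Its match began 7 bases before the start in Cd207, at -7, at -56 in Itgax and at -61 in Zbtb46. An E-box was present in 8 of 9, against 66.2% of all promoters, with Itgax the exception, and Siglech held 3. The PU.1 core, spelled GAGGAAG, the site of a myeloid transcription factor, matched in Cd207 and Batf3, 2 of 9, against 10.6%. The interferon regulatory factor element (GAAA, any pair of bases, GAAA) matched in 0 of 9, against 2.98%. The RefSeq starts of Batf3 and Zbtb46 lie inside their annotated genes, so their windows are not upstream of the gene as a whole. A match is a run of letters and was not shown to be bound.

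Because levels can be compared between genes only per length, CPM was divided by the exon length in kilobases. In VAS+H2O, Cd209a led with 6.13 ± 2.48 CPM per kb (SD, n = 3), and its gap to the next gene, Cd207 (2.58 ± 1.42), exceeded the SD of both. Zbtb46 followed with 1.45 ± 0.321, ahead of Itgax, Batf3, Flt3, Clec9a, Siglech and Ccr7, which lay between 0.950 and 0.489 with no gap between neighbours larger than the SD of both. Xcr1 was lowest at 0.200 ± 0.0118 CPM per kb, beyond both SDs from Ccr7. In IMQ+H2O, Cd209a (4.44 ± 2.24 CPM per kb) and Ccr7 (3.56 ± 1.95) stood first and second, within their SDs. In IMQ+XYF the order at the top was Ccr7 (3.60 ± 1.37 CPM per kb), Cd207 (3.20 ± 2.55) and Cd209a (2.66 ± 0.579), which were within their SDs of one another, and only Cd209a's gap to the next gene, Itgax, exceeded both SDs among these 3. By its mean Ccr7 thus moved from the ninth place of 10 to second and first, and Xcr1 was last in each group. In IMQ+H2O the gap from Ccr7 to the third gene, Zbtb46 (1.75 ± 0.0725 CPM per kb), was 1.81, within the SD of Ccr7.

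**Figure D1:**
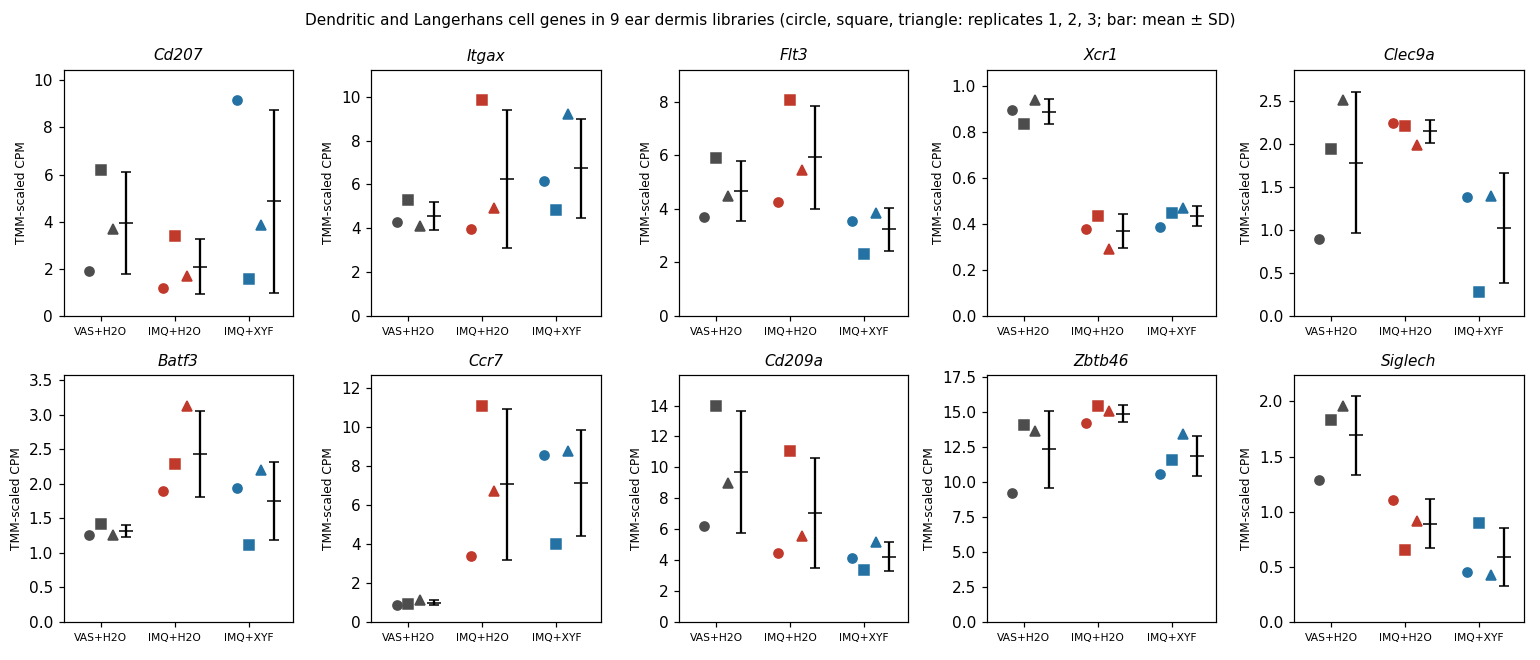
TMM-scaled CPM of the 10 genes (vertical axes, from 0) in each of the 9 libraries by group (horizontal axes), with the mean and SD of the 3 libraries of a group beside the points. Ccr7 was 0.873 to 1.11 CPM in VAS+H2O and 3.38 to 11.1 in the imiquimod groups, while Xcr1 and Siglech were lower in every imiquimod library than in every VAS+H2O library.

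The first question was what imiquimod did to these genes (IMQ+H2O against VAS+H2O). Ccr7 rose, and no other marker gene passed the test. A gene was called when the Benjamini-Hochberg adjusted p of edgeR's quasi-likelihood test, taken over all 22430 genes, was at most 0.05 and the log2 fold change was at least 1 in size. By this rule 1 of the 10 genes was called higher, against 0.646% of all genes tested, and 0 were called lower, against 0.348%. An unadjusted p under 0.05 was reached by 4 of the 10, namely Ccr7, Xcr1, Batf3 and Siglech. DESeq2 called 1 gene higher (Ccr7), against 2.18% of all genes it tested, and 1 lower (Xcr1), against 1.7%. The groups did not overlap for 3 genes that were higher (Ccr7, Batf3 and Zbtb46), against 15.1% of all genes, or for 2 that were lower (Xcr1 and Siglech), against 16.5%, so separation of the groups as such was common across the transcriptome. The median log2 fold change of the 10 genes was 0.27, beside -0.023 over all genes.

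The second question was whether XYF altered the imiquimod response (IMQ+XYF against IMQ+H2O). No marker gene was called. The edgeR count was 0 higher and 0 lower, where each direction held 0.00446% of all genes, and Flt3 alone had an unadjusted p under 0.05. DESeq2 also called 0 in either direction, against 0.76% of all genes higher and 0.377% lower. The groups did not overlap for 0 genes that were higher, against 9.22% of all genes, and for 3 that were lower (Flt3, Clec9a and Zbtb46), against 8.74%. The median log2 fold change was -0.40 over the 10 genes and 0.0054 over all genes.

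The third comparison set IMQ+XYF against VAS+H2O and shares libraries with both others. Ccr7 rose again, 1 of 10 against 0.695% of all genes, and 0 were called lower, against 0.508%, with 4 genes (Ccr7, Xcr1, Siglech and Cd209a) at an unadjusted p under 0.05. DESeq2 called 1 higher (Ccr7), against 1.91%, and 3 lower (Siglech, Cd209a and Xcr1), against 1.54%. The groups did not overlap for 1 higher gene (Ccr7), against 11.7%, and for 3 lower genes (the same 3 that DESeq2 called), against 10.3%. The median log2 fold change was -0.29.

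**Figure D2:**
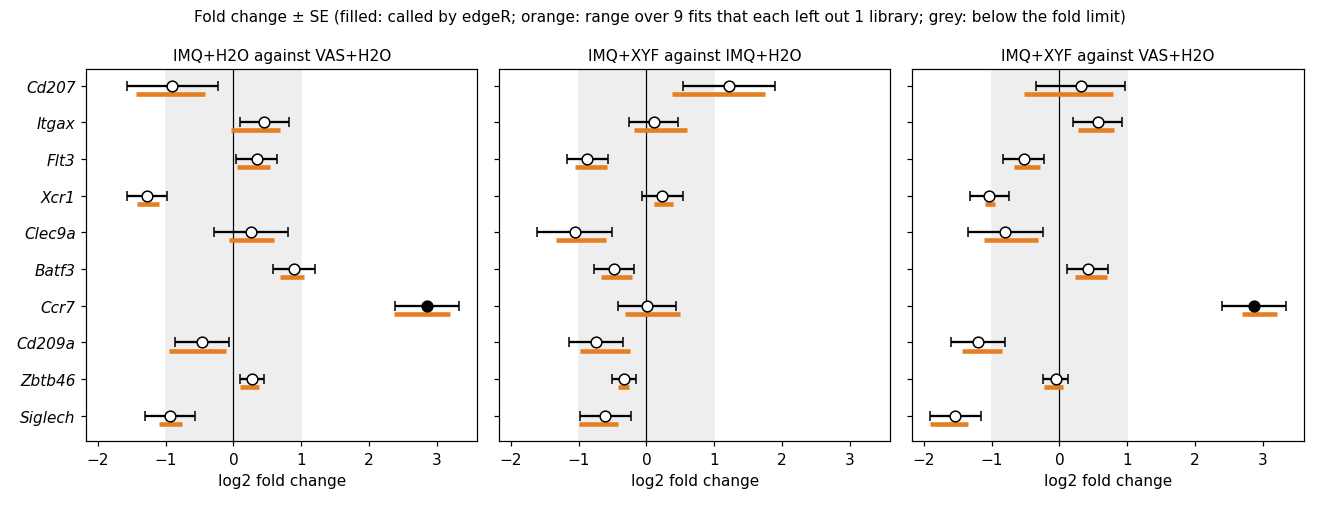
log2 fold change of each gene (circles) with its SE (black bars) in the 3 comparisons, with filled circles for genes called by edgeR, grey for changes under 1 on the log2 scale, and orange bars for the range over 9 fits that each left out 1 library. Ccr7 is filled at 2.86 and 2.87 and lies at 0.01 between the imiquimod groups, and the orange bar of Cd207 spans 0.38 to 1.75 in IMQ+XYF against IMQ+H2O.

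Ccr7 (ENSMUSG00000037944, chr11:99144196-99155077) encodes the chemokine receptor that guides mature dendritic cells, and also naive and central memory T cells, to the lymph node. Its level was 0.873, 0.917 and 1.11 CPM in the 3 VAS+H2O libraries. It was 3.38, 11.1 and 6.71 CPM in IMQ+H2O, and 8.59, 3.99 and 8.77 CPM in IMQ+XYF. All 6 imiquimod libraries lay above all 3 control libraries, and the imiquimod groups overlapped each other. The counts behind these levels were 33 to 83 in VAS+H2O, 98 to 456 in IMQ+H2O and 196 to 690 in IMQ+XYF. Ccr7 rose by 2.86 ± 0.469 on the log2 scale with imiquimod (log2 fold change ± SE, 7.25-fold; edgeR, Benjamini-Hochberg adjusted p = 0.0314), and by 2.87 ± 0.469 in IMQ+XYF against VAS+H2O (7.31-fold; edgeR adjusted p = 0.0309). The imiquimod call was lost without VAS+H2O replicate 1, 2 or 3 or IMQ+H2O replicate 2 or 3, at log2 fold changes of 2.38 to 2.98 and edgeR adjusted p of 0.0854 to 0.108, and the adjusted p ranged from 9.89e-08 by DESeq2 to 0.108 over all alternatives. The call in IMQ+XYF against VAS+H2O was lost without any VAS+H2O replicate, IMQ+H2O replicate 3 or IMQ+XYF replicate 1 or 3, at 2.69 to 2.99 and edgeR adjusted p of 0.0535 to 0.121 (range over all alternatives 5.03e-08 to 0.121). Between IMQ+XYF and IMQ+H2O the log2 difference was 0.01 ± 0.427, with a 95% interval of -0.96 to 0.98. The values thus leave room for a change of nearly 2-fold in either direction. The interval is unadjusted and is not the detection limit of the adjusted test.

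Set against Ptprc (CD45), which all leukocytes express, Ccr7 stood at 33.9 ± 9.51 counts per 1000 Ptprc counts in VAS+H2O (SD, n = 3), 171 ± 42.4 in IMQ+H2O and 241 ± 40.8 in IMQ+XYF. The highest control ratio was 41.6 and the lowest ratio in an imiquimod library 147, so the separation held against the leukocyte gene as well. Genes of other cells that use CCR7 were measured beside it. The sum of 10 T and NK cell genes was 17.9 to 31.0 CPM in VAS+H2O, 13 to 36.8 in IMQ+H2O and 13.3 to 27.1 in IMQ+XYF, with 0 of the 8 tested genes called higher in any comparison. Cd4, which some dendritic cells and macrophages also express, fell in IMQ+XYF against VAS+H2O (log2 fold change -1.74, edgeR adjusted p = 0.0475). Trdc, of γδ T cells, averaged 4.69, 16.1 and 8.31 CPM in VAS+H2O, IMQ+H2O and IMQ+XYF, a difference with imiquimod that was not called (edgeR adjusted p = 0.217). The B cell gene Ighm averaged 25.2 CPM in VAS+H2O, 12 in IMQ+H2O and 8.11 in IMQ+XYF, and fell in both imiquimod groups against VAS+H2O. The other B cell genes tested were not called, with Cd79a at 0.824, 0.598 and 0.858 CPM and Cd79b at 0.461, 0.656 and 0.641 CPM in the same order, so the listed genes had no common direction.

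The genes of a list drawn up for mature migratory dendritic cells and the CCR7 ligands moved with Ccr7 in part. Of its 16 genes 15 were tested, Lamp3 having no counts. With imiquimod 14 of the 15 had a positive log2 fold change, and the median was 0.69, beside -0.023 over all genes. Of the 15, 3 were called higher (Ccr7 itself, Ccl22 and Ccl19), where 0.646% of all genes were, and 0 were called lower, where 0.348% were. In the same comparison 4 of 4 leukocyte, 10 of 12 macrophage and monocyte and 5 of 5 endothelial genes were positive (medians 0.65, 0.67 and 0.84). Of 8 T and NK cell genes 4 were positive, of 8 keratinocyte genes 1 and of 4 cartilage genes 0. The upward lean was thus not particular to this list, and the part of tissue composition was not tested. Ccl22 and Ccl17, the latter listed with type 2 conventional dendritic cells, encode the chemokines that mature dendritic cells make to draw in CCR4-bearing T cells. Ccl22 was 5.46, 5.50 and 5.48 CPM in VAS+H2O, 22, 76.3 and 37.6 in IMQ+H2O, and 26.8, 26.3 and 46.7 in IMQ+XYF. Ccl17 was 1.5, 2.03 and 1.74 CPM in VAS+H2O, 10.4, 23.4 and 14.9 in IMQ+H2O, and 7.44, 8.60 and 17.6 in IMQ+XYF. For both, every imiquimod library lay above every control library. Ccl22 rose by 3.05 and Ccl17 by 3.21 on the log2 scale with imiquimod (edgeR adjusted p = 0.0247 and 0.0177), and by 2.60 and 2.67 in IMQ+XYF against VAS+H2O (edgeR adjusted p = 0.0326 and 0.0255).

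The CCR7 ligands parted ways. Ccl19, which dendritic cells and lymphoid stroma make, was 2.94, 3.64 and 3.76 CPM in VAS+H2O, 8.78, 11 and 18.4 in IMQ+H2O and 8.46, 5.86 and 10.7 in IMQ+XYF. It rose by 1.88 on the log2 scale with imiquimod (edgeR adjusted p = 0.0342), and the difference of 1.27 between IMQ+XYF and VAS+H2O was not called (edgeR adjusted p = 0.0752, DESeq2 adjusted p = 0.0027). Ccl21a, made by lymphatic endothelium, was far more abundant at 272 to 375, 286 to 432 and 238 to 491 CPM in the 3 groups, which overlapped, and its log2 fold change was 0.11 with imiquimod. Ccl19 and Ccl21a have near-identical copies in the mouse genome, and how reads were shared among them is not given in the sources used here. The calls of Ccl17 and Ccl19 with imiquimod were each lost in 5 of 9 fits that left out 1 library (VAS+H2O replicate 1, 2 or 3 or IMQ+H2O replicate 2 or 3, edgeR adjusted p up to 0.0797 and 0.108), and that of Ccl22 in 4 (the same without IMQ+H2O replicate 2, up to 0.0971). In IMQ+XYF against VAS+H2O, the calls of Ccl17 and Ccl22 were lost without any VAS+H2O replicate or IMQ+XYF replicate 1 or 3, and that of Ccl22 also without IMQ+H2O replicate 3 (edgeR adjusted p up to 0.109 and 0.123). None of the 3 was called between IMQ+XYF and IMQ+H2O, at log2 differences of -0.54 for Ccl17, -0.45 for Ccl22 and -0.61 for Ccl19.

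**Figure D3:**
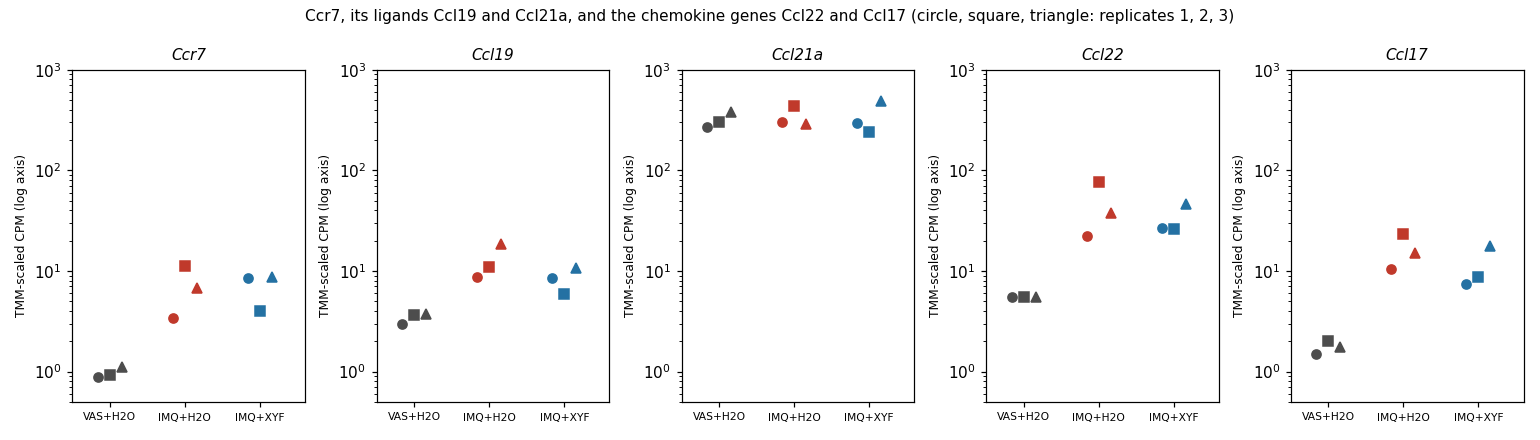
TMM-scaled CPM (log axis) of Ccr7, its ligand genes Ccl19 and Ccl21a, and Ccl22 and Ccl17 in each library by group. Ccr7, Ccl22, Ccl17 and Ccl19 lie higher in all 6 imiquimod libraries than in the 3 VAS+H2O libraries, whereas Ccl21a overlaps across the groups at 238 to 491 CPM.

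Others on the list did not pass. The most abundant of them after Ccl21a, Marcks, a membrane-bound regulator of actin, had a log2 fold change of 0.18 with imiquimod. Il4i1, an amino acid oxidase of mature dendritic cells, averaged 0.523 CPM in VAS+H2O and 4.32 in IMQ+H2O, a log2 difference of 3.04 that missed the limit (edgeR adjusted p = 0.0668). The costimulatory genes Cd80, Cd40 and Cd86 had log2 fold changes of 1.47, 0.71 and 0.22, and Cd83 was the 1 listed gene with a negative value, -1.40 (edgeR adjusted p 0.135 to 0.802). These last 5 genes were picked for mention after their values were seen. By root mean square distance over the 9 libraries, each gene centred on its own mean of log2 CPM, the genes nearest to Ccr7 among 14512 compared were Ccl22 (0.326), Hp (0.402) and Tnfrsf9 (0.402), where the SD of Ccr7 itself was 1.38.

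Xcr1 (ENSMUSG00000060509, chr9:123852315-123862029) encodes the receptor by which type 1 conventional dendritic cells meet XCL1 from cytotoxic and natural killer cells. Its level was 0.898, 0.834 and 0.938 CPM in VAS+H2O, 0.379, 0.437 and 0.293 in IMQ+H2O and 0.386, 0.448 and 0.471 in IMQ+XYF. Every imiquimod library lay below every control library, and the control libraries were close together. The log2 fold change was -1.27 ± 0.296 with imiquimod (2.41-fold lower; 95% interval -1.94 to -0.60), which edgeR did not call (adjusted p = 0.0723) and DESeq2 did (adjusted p = 0.0208; range over all alternatives 0.0208 to 0.239). In IMQ+XYF against VAS+H2O it was -1.03 ± 0.286, likewise called by DESeq2 alone (adjusted p = 0.049, edgeR 0.103; range over all alternatives 0.049 to 0.264). These levels rest on 11 to 70 counts per library. Per 1000 Ptprc counts Xcr1 stood at 31.4 ± 8.94, 10.6 ± 5.34 and 16.0 ± 5.48 in the 3 groups (SD, n = 3), with 1 imiquimod library at 22.4 and the lowest control at 21.2, so that on this scale the groups touched.

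With imiquimod, Clec9a and Batf3 had positive log2 fold changes where that of Xcr1 was negative. Clec9a (ENSMUSG00000046080, chr6:129408862-129424763) encodes the receptor for exposed actin on dead cells and shares 184 exonic bases with Clec1b on the same strand, so its counts are uncertain there. It was 0.898, 1.95 and 2.51 CPM in VAS+H2O, 2.24, 2.21 and 1.99 in IMQ+H2O and 1.38, 0.285 and 1.40 in IMQ+XYF. All 3 IMQ+XYF libraries lay below all 3 IMQ+H2O libraries, at a log2 difference of -1.06 ± 0.556 that was not called (edgeR adjusted p = 0.480), and without the lowest, IMQ+XYF replicate 2, the difference was -0.60. Batf3 (ENSMUSG00000026630, chr1:191097847-191108945), the factor on which this lineage depends, was 1.26, 1.42 and 1.26 CPM in VAS+H2O, 1.89, 2.28 and 3.12 in IMQ+H2O and 1.94, 1.12 and 2.19 in IMQ+XYF. The IMQ+H2O libraries were all above the control libraries, a log2 difference of 0.89 ± 0.303 under the fold limit and not called (edgeR adjusted p = 0.151). In IMQ+H2O, Xcr1 thus lay below and Batf3 above all control libraries, neither called by edgeR. Of all genes, 16.5% separated downwards and 15.1% upwards in the same way. In IMQ+XYF, Batf3 overlapped the controls. Of 12 genes listed for these cells with the ligands Xcl1 and Flt3l, 12 were tested and 0 called in each comparison, 8 with a negative log2 fold change with imiquimod (median -0.33) and 11 in IMQ+XYF against VAS+H2O (median -0.30). The most abundant were Cd36, a scavenger receptor that endothelium and fat also express, with a log2 fold change of 0.61 with imiquimod, and Flt3l, the growth factor of dendritic cells, at 67.3, 50.1 and 38.0 CPM in VAS+H2O, IMQ+H2O and IMQ+XYF.

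Siglech (ENSMUSG00000051504, chr7:55768178-55778925) encodes a lectin-like receptor of mouse plasmacytoid dendritic cells. It was 1.29, 1.83 and 1.96 CPM in VAS+H2O, 1.10, 0.655 and 0.917 in IMQ+H2O and 0.448, 0.895 and 0.422 in IMQ+XYF. In CPM both imiquimod groups lay below the controls without overlap, and they overlapped each other. Siglech stood at 58.0 ± 13.7 counts per 1000 Ptprc counts in VAS+H2O (SD, n = 3). On this scale it was 27.1 ± 18.6 in IMQ+H2O and 23.7 ± 18.2 in IMQ+XYF. The lowest control was 46.6 and the highest IMQ+H2O library 48.2, so these 2 groups overlapped, while the highest IMQ+XYF library was 44.7. In IMQ+XYF against VAS+H2O the log2 fold change was -1.54 ± 0.372 (2.90-fold lower; 95% interval -2.38 to -0.69), called by DESeq2 (adjusted p = 0.00454) and not by edgeR (adjusted p = 0.0736; range over all alternatives 0.00454 to 0.210). Without IMQ+XYF replicate 2, the highest of its group, edgeR called it as well, at -1.91 (adjusted p = 0.0210). With imiquimod alone it was -0.93 ± 0.369 (edgeR adjusted p = 0.200). The counts were 26 to 146 per library.

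The plasmacytoid list, which includes Siglech, was evenly split with imiquimod. Of 12 listed, 12 were tested and 0 called in each comparison, 6 with a positive and 6 with a negative log2 fold change with imiquimod (median 0.041). Between IMQ+XYF and IMQ+H2O 8 were negative (median -0.26, beside 0.0054 over all genes). In IMQ+XYF against VAS+H2O 8 were negative as well (median -0.42, beside -0.024). The most abundant, Ly6d and Tcf4, are also expressed outside this lineage, Ly6d in keratinocytes. Ly6d averaged 238, 106 and 362 CPM in VAS+H2O, IMQ+H2O and IMQ+XYF, and between IMQ+XYF and IMQ+H2O its log2 difference was 1.78, called by DESeq2 and not by edgeR (adjusted p = 0.00836 and 0.363; range over all alternatives 0.00836 to 0.619). Tcf4 averaged 261, 180 and 219 CPM. Tlr7, named here because it encodes the receptor of imiquimod, averaged 4.97, 3.82 and 2.81 CPM and was not called (edgeR adjusted p = 0.661 with imiquimod and 0.374 in IMQ+XYF against VAS+H2O).

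Cd209a (ENSMUSG00000031494, chr8:3743397-3748984), the mouse DC-SIGN homologue of type 2 conventional and monocyte-derived dendritic cells, had the highest level per length in the control skin. It was 6.19, 14 and 8.99 CPM in VAS+H2O, 4.48, 11.1 and 5.54 in IMQ+H2O and 4.12, 3.36 and 5.18 in IMQ+XYF. The first pair of groups overlapped, and every IMQ+XYF library lay below every VAS+H2O library. The log2 fold change was -0.46 ± 0.394 with imiquimod (edgeR adjusted p = 0.534), -0.74 ± 0.397 between IMQ+XYF and IMQ+H2O (edgeR adjusted p = 0.488) and -1.20 ± 0.399 in IMQ+XYF against VAS+H2O (2.30-fold lower). DESeq2 called the last (adjusted p = 0.0455) and edgeR did not (adjusted p = 0.154; range over all alternatives 0.0455 to 0.370). Per 1000 Ptprc counts, Cd209a was 317 ± 49.7 in VAS+H2O, 179 ± 52.0 in IMQ+H2O and 149 ± 17.0 in IMQ+XYF (SD, n = 3), with a lowest control value of 261 and a highest imiquimod value of 221. On that scale, unlike in CPM, the control group stood apart from both imiquimod groups. Ptprc itself averaged 29.9 CPM in VAS+H2O, 39.6 in IMQ+H2O and 28.8 in IMQ+XYF, and its part in the ratio was not tested. How many of all genes separate on that scale was not counted.

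The genes closest to Cd209a over the 9 libraries were Csf1r (0.183), the receptor of macrophage and Langerhans cell growth factors, Cd74 (0.199), the invariant chain of MHC class II, and Postn (0.216), an extracellular matrix gene, where the SD of Cd209a was 0.646. Cd74 averaged 613, 469 and 291 CPM in VAS+H2O, IMQ+H2O and IMQ+XYF, with a log2 fold change of -1.07 in IMQ+XYF against VAS+H2O that DESeq2 called and edgeR did not (adjusted p = 0.0072 and 0.0801; range over all alternatives 0.0072 to 0.211). Of 12 genes listed for type 2 conventional dendritic cells 11 were tested, Clec4a4 being too low. Ccl17 was the only one called, and between IMQ+XYF and IMQ+H2O 10 of the 11 had a negative log2 fold change (median -0.58, beside 0.0054 over all genes). In the same comparison 0 of 12 macrophage and monocyte genes and 0 of 5 endothelial genes had a positive value (medians -0.49 and -0.62). All 8 keratinocyte genes and the 4 tested cartilage genes were positive (medians 1.60 and 1.54). The fall was thus not particular to the type 2 list, and the part of tissue composition was not tested. The most abundant of the type 2 list, Klf4 and Esam, averaged 739, 458 and 527 CPM and 39.3, 67.4 and 42.3 CPM in the 3 groups, and both are also expressed by epithelium or endothelium. Genes of macrophages and monocytes, cells that share Cd209a and Csf1r in part, summed to 741 to 1115 CPM in VAS+H2O, 1067 to 1498 in IMQ+H2O and 927 to 1034 in IMQ+XYF over 12 genes, 0 of which were called. None was at 0, and their part in the Cd209a values was not tested.

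Cd207 (ENSMUSG00000034783, chr6:83671215-83677857) encodes langerin, the lectin that forms Birbeck granules in Langerhans cells, and is also found in some dermal type 1 dendritic cells. It was 1.89, 6.20 and 3.71 CPM in VAS+H2O, 1.21, 3.40 and 1.68 in IMQ+H2O and 9.15, 1.59 and 3.86 in IMQ+XYF. The groups overlapped throughout, and the spread within IMQ+XYF was 5.77-fold from lowest to highest. Cd207 had the largest biological coefficient of variation of the 10 genes, 0.564, where the common value over all genes was 0.296. The log2 fold change was -0.90 ± 0.675 with imiquimod (edgeR adjusted p = 0.473) and 1.22 ± 0.675 between IMQ+XYF and IMQ+H2O (edgeR adjusted p = 0.5). Without IMQ+XYF replicate 1, the latter was 0.38, and the log2 fold change of IMQ+XYF against VAS+H2O went from 0.31 to -0.52.

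Keratinocyte genes and Cd207 peaked in the same libraries. The sum of 8 of them was 4950, 7256 and 3823 CPM in VAS+H2O, 2369, 3584 and 2862 in IMQ+H2O and 16569, 4274 and 5658 in IMQ+XYF. In each of the 3 groups the library with the most Cd207 was also the one with the highest keratinocyte sum. In VAS+H2O and IMQ+H2O, though not in IMQ+XYF, that library was also the highest for Itgax, Flt3, Cd209a, Zbtb46 and Ptprc. None of the 8 genes was at 0 in any library and none was called in any comparison. The genes nearest to Cd207 among 14512 compared were Plek2 (0.256), Serpinb10 (0.291) and Krt5 (0.329), a keratin of basal keratinocytes, where the SD of Cd207 was 0.91. The part of retained epidermis in the Cd207 values was not tested. Of 12 genes listed for Langerhans cell identity and upkeep, 12 were tested and 0 called in each comparison, with medians of -0.14, -0.085 and -0.062. The most abundant were Axl, a receptor kinase, and Tgfbr2, a receptor of the TGF-β that keeps Langerhans cells in place, with log2 fold changes of 0.20 and 0.26 with imiquimod.

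**Figure D4:**
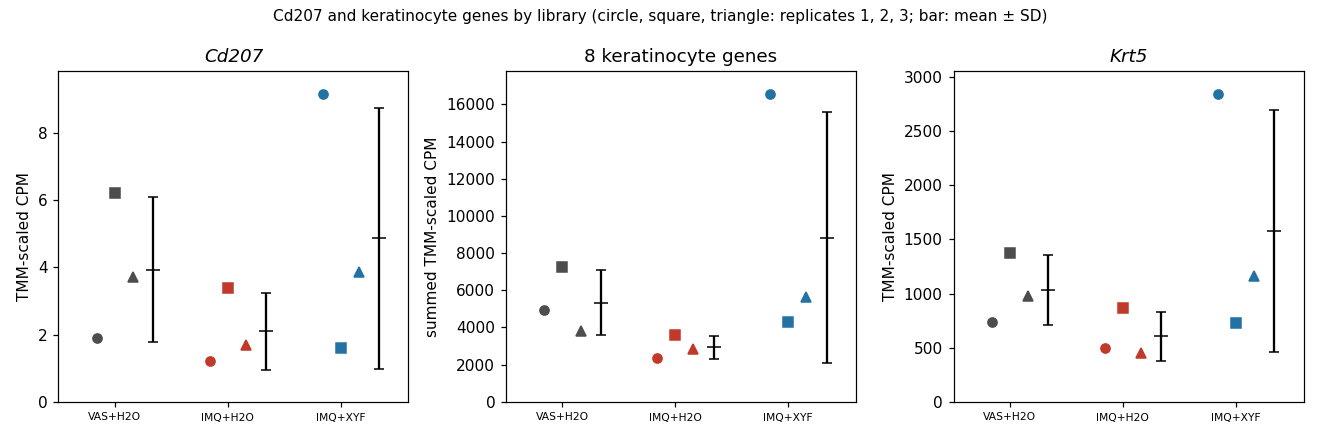
TMM-scaled CPM of Cd207, the summed TMM-scaled CPM of 8 keratinocyte genes, and that of Krt5 (vertical axes, from 0) in each library by group, with the mean and SD beside the points. IMQ+XYF replicate 1 is highest in all 3 panels, at 9.15, 16569 and 2846 CPM.

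Flt3, Itgax and Zbtb46 are shared by the conventional lineages. Flt3 (ENSMUSG00000042817, chr5:147330741-147400489), the receptor for FLT3 ligand that sustains dendritic cell precursors, was 3.69, 5.89 and 4.47 CPM in VAS+H2O, 4.27, 8.05 and 5.46 in IMQ+H2O and 3.53, 2.32 and 3.86 in IMQ+XYF. The IMQ+XYF libraries were all below the IMQ+H2O libraries, although the gap between 3.86 and 4.27 CPM was small. The antisense gene Gm26597 overlaps Flt3 without sharing exonic bases. The log2 difference was -0.87 ± 0.303 (95% interval -1.56 to -0.18), which was not called after adjustment (edgeR adjusted p = 0.379, DESeq2 0.148; range over all alternatives 0.148 to 0.617). It was the only unadjusted p under 0.05 among the 10 genes in that comparison. With imiquimod alone the log2 fold change of Flt3 was 0.34 ± 0.301.

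Itgax (ENSMUSG00000030789, chr7:128129547-128150657) encodes the integrin CD11c, which dendritic cells share with some macrophages. It was 4.29, 5.28 and 4.11 CPM in VAS+H2O, 3.96, 9.83 and 4.93 in IMQ+H2O and 6.17, 4.82 and 9.22 in IMQ+XYF. All groups overlapped, and 1 library of each imiquimod group was high. The log2 fold change was 0.46 ± 0.363 with imiquimod and -0.035 without IMQ+H2O replicate 2, its high library. Zbtb46 (ENSMUSG00000027583, chr2:181387762-181459426), a transcription factor of committed conventional dendritic cells that endothelium also expresses, varied least, with a biological coefficient of variation of 0.19. It was 9.19, 14.1 and 13.7 CPM in VAS+H2O, 14.2, 15.4 and 15.1 in IMQ+H2O and 10.6, 11.6 and 13.4 in IMQ+XYF. The IMQ+H2O libraries lay above both other groups, narrowly so above VAS+H2O, and the log2 differences were 0.27 ± 0.179 with imiquimod and -0.33 ± 0.179 between IMQ+XYF and IMQ+H2O (edgeR adjusted p = 0.412 and 0.493). The sum of 5 endothelial genes was likewise highest in IMQ+H2O, at 453 to 722 CPM in VAS+H2O, 967 to 1028 in IMQ+H2O and 371 to 917 in IMQ+XYF. None was at 0 or called, and its part in the Zbtb46 values was not tested.

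The 6 dendritic cell lists together held 71 genes, 69 of them tested. With imiquimod 4 of the 69 were called higher (Ccr7, Ccl17, Ccl22 and Ccl19), against 0.646% of all genes, and 0 lower, against 0.348%. In IMQ+XYF against VAS+H2O 3 were called higher (Ccr7, Ccl17 and Ccl22), against 0.695%, and 0 lower, against 0.508%. Between IMQ+XYF and IMQ+H2O 0 were called, 19 of 69 had a positive log2 fold change, and the median was -0.22, beside 0.0054 over all genes. Among genes shared by conventional dendritic cells, Cd74 and Dpp4 were the most abundant of those not described above as markers, and Dpp4, a surface peptidase, averaged 21.7, 12.5 and 11.5 CPM. Leukocyte genes as a whole (4 genes) summed to 113 to 172 CPM in VAS+H2O, 134 to 257 in IMQ+H2O and 120 to 179 in IMQ+XYF, with 0 called. Between IMQ+XYF and IMQ+H2O 0 of these 4 had a positive log2 fold change (median -0.38). The 8 neutrophil genes summed to 6.65 to 22.4, 208 to 663 and 171 to 476 CPM. Of the 7 tested, 4 were called higher with imiquimod (0.646% of all genes) and 3 in IMQ+XYF against VAS+H2O (0.695%). All 7 had a positive log2 fold change in both comparisons (medians 5.14 and 3.88).

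**Figure D5:**
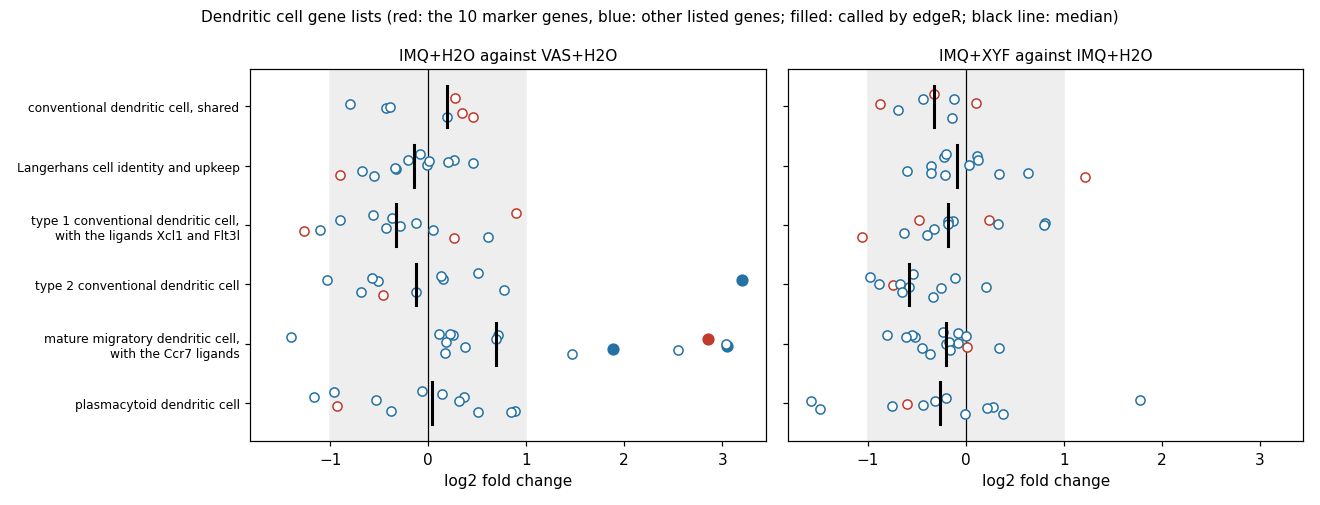
log2 fold change (horizontal axes) of the tested genes of 6 dendritic cell lists (rows), with imiquimod at left and with XYF on top of imiquimod at right. Red circles are the 10 marker genes, blue the other listed genes, filled circles those called by edgeR and black lines the list medians, and the 4 filled circles at left are Ccr7, Ccl17, Ccl22 and Ccl19.

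The remaining nearest genes were mostly of other functions. Flt3 ran closest to Padi2 (0.119), Slamf7 and Slc18a2, Batf3 to Rinl (0.129), Slc43a3 and Lyn, and Xcr1 to Nt5e (0.155), Ltbp2 and Tmem119. Clec9a ran closest to Fhl5 (0.343), Cacna1h and Npy1r, and Itgax to Ppig (0.162), Zdhhc6 and Nek2. Zbtb46 ran closest to Chchd3 (0.0994), Neu1 and Creld1, and Siglech to Mc5r (0.158), Ache and Slc28a1. These distances are over 9 libraries that share their groups and are given as a description.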

How the data were processed

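RNA libraries of 9 dermal sheets peeled from ear skin were prepared with a TruSeq kit by the authors. Per the labels, reads were checked with FastQC and aligned to GRCm38 with STAR 2.5, and Cuffnorm and DESeq 1.22.1 are named in the processing notes. The deposited table holds whole-number read counts per Ensembl gene. How reads were counted, including use of strand and of reads with several matches, is not given in the sources used here. The 10 marker genes and the gene lists were chosen with earlier results of these data known.

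Counts of all 9 libraries were fitted in edgeR 4.0.16 (R 4.3.3) with TMM factors, the filterByExpr filter and the quasi-likelihood test, and p-values were adjusted by Benjamini-Hochberg over 22430 genes. Calls required an adjusted p of at most 0.05 and a log2 fold change of at least 1 in size. SE was the size of the log2 fold change over the square root of F, and 95% intervals used the t distribution with the same degrees of freedom. DESeq2 1.42.0 (Wald test) was an alternative, beside other scalings, filters, sample sets and leaving out each of 9 libraries. The step was tested on simulated counts. Genes named were the 10 markers, every listed gene called, the 2 most abundant others of each list, and the 3 nearest genes of each marker with a mean of at least 1 CPM (log2 CPM with a prior count of 2). Il4i1, Cd80, Cd40, Cd86, Cd83 and Tlr7 were added after their values were seen, as were the single genes shown for other tissues and cell types, and Ptprc served as a leukocyte reference. Exon lengths and positions came from GENCODE M21 (GRCm38). Intervals and floors cover counting or sampling error only.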

Additional observations from a re-analysis of the deposited data

How the results depend on the processing

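The 16 alternatives kept direction and call for 151 of 160 values of the 10 genes with imiquimod, 152 of 160 between IMQ+XYF and IMQ+H2O and 141 of 160 in IMQ+XYF against VAS+H2O. Against main counts of 1 marker gene and 4 listed genes with imiquimod, DESeq2 called 1 marker gene lower and 9 listed genes. It called 1 listed gene (Ly6d) between IMQ+XYF and IMQ+H2O, and 3 marker genes lower and 11 listed genes in IMQ+XYF against VAS+H2O. In that comparison, fitting the 6 libraries alone gave 0 marker genes higher and 1 listed gene (Ccl22), with fewer samples. With the replicate number as a block, 0 marker genes and 2 listed genes (Ccl17 and Ccl19) were called with imiquimod, and 0 and 0 in IMQ+XYF against VAS+H2O, Ccr7 reaching an edgeR adjusted p of 0.0812 and 0.0814. The 9 same-number correlations ran from -0.183 to 0.125, and in 3 of 9 checks a sample correlated best with its own number. With 3 libraries a group this check cannot exclude pairing or a shared batch. Why the block lowered the number of calls was not tested.

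Leaving out 1 library gave 0 to 1 marker gene and 0 to 4 listed genes called with imiquimod, and 0 to 1 higher, 0 to 1 lower and 0 to 5 listed in IMQ+XYF against VAS+H2O. In IMQ+XYF against VAS+H2O, Cd36 was 0.0065 by DESeq2, 0.0015 with its size factors and 0.044 with library totals, which gave 0.014 for Zbtb46. Between IMQ+XYF and IMQ+H2O a stricter filter gave -0.0011 for Ccr7 and -0.0096 for Ccl21a, and the block -0.043 for Ccl21a. Ranges that crossed 0 when 1 library was left out were, with imiquimod, -0.062 to 0.59 for Clec9a, -0.035 to 0.69 for Itgax and -0.10 to 0.25 for Ccl21a. Between IMQ+XYF and IMQ+H2O they were -0.32 to 0.49 for Ccr7, -0.18 to 0.60 for Itgax, -0.35 to 0.24 for Ccl21a, -0.77 to 0.16 for Ccl22, -0.46 to 0.21 for Dpp4 and -0.34 to 0.0091 for Marcks. In IMQ+XYF against VAS+H2O they were -0.52 to 0.79 for Cd207, -0.23 to 0.050 for Zbtb46, -0.24 to 0.031 for Axl, -0.24 to 0.36 for Ccl21a, -0.23 to 0.18 for Cd36, -0.21 to 0.44 for Esam, -0.086 to 0.99 for Ly6d, -0.16 to 0.21 for Marcks and -0.10 to 0.25 for Tgfbr2. With 3 libraries a group and 11 counts at the lowest for Xcr1, small differences in the rarest genes were not detectable at this depth.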
